A study of Mus musculus with 36 samples.

Results

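The 10 circadian clock genes Arntl, Clock, Per1, Per2, Per3, Cry1, Cry2, Nr1d1, Nr1d2 and Dbp were followed through 36 RNA-Seq libraries of mouse femoral bone marrow. They were chosen by symbol, as 10 of the 24597 named genes of the count table, and all 10 passed the filter on low counts that left 15337 genes for testing. The libraries covered 3 genotypes, both sexes and the ages of 3 and 32 weeks, with 3 libraries in each of the 12 groups, and the marrow RNA of 2 to 4 mice was combined in each library. Control mice were Nox4fl/fl. CKO mice were PrxCre+/- Nox4fl/fl, in which the Prrx1-driven Cre acts in limb bud mesenchyme, whereas whole marrow is mostly hemopoietic. Nox4-/- mice were whole-body knockouts that lack exons 1 and 2. All groups were on the C57BL/6J background, ate standard chow and were killed with CO2, and the hour of tissue collection was not given in the sources used here. In pooled whole marrow, fewer cells of a type and less RNA per cell cannot be told apart.

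The mammalian clock is a feedback loop of transcription that runs in nearly every cell, those of the marrow included. ARNTL (BMAL1) and CLOCK form the activator that binds E-boxes, and the PER and CRY proteins that it induces return to inhibit it. The nuclear receptors NR1D1 and NR1D2 (REV-ERBα and REV-ERBβ) repress Arntl through ROR elements, and DBP activates genes through D-boxes. Because of this wiring, transcripts of Nr1d1, Nr1d2, Dbp and Per3 normally peak together and Arntl peaks at the opposite time of day. Per1 is in addition an acute target of glucocorticoids and of cAMP signalling.

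Nox4, the targeted gene, was near the limit of detection. It had 0 to 6 counts in the 12 control libraries, 5 of which held 0, and 0 to 3 counts in the 12 CKO libraries, 7 of which held 0. All 12 Nox4-/- libraries held 0. The counts therefore carry little information on the CKO. Libraries of 3 weeks held 32316236 to 163611881 counts on named genes (17 libraries) and those of 32 weeks held 11193750 to 46569282 (18 libraries). The remaining library of 3 weeks, Nox4-/- male replicate 2, carried the genotype label 0/1 and had 405512 counts, so that 3 counts correspond to a CPM (counts scaled to a common library size) of 7.29. It was kept in its group in the tests and left out of the ranges and correlations below unless named. No defining marker of the 11 marrow and tissue lists was at 0 over all libraries, and the hemopoietic markers (neutrophil, erythroid, B lineage, megakaryocyte, monocyte) were all detected.

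In GRCm38.p6 coordinates, Arntl lies on chromosome 7 from 113178471 to 113314126, Clock on chromosome 5 from 76209868 to 76305603, Per1 on chromosome 11 from 69095108 to 69109965 and Per2 on chromosome 1 from 91415977 to 91459351. Per3 lies on chromosome 4 from 150997018 to 151044707, Cry1 on chromosome 10 from 85131700 to 85185054 and Cry2 on chromosome 2 from 92403646 to 92434085. Nr1d1 lies on chromosome 11 from 98767932 to 98775377, Nr1d2 on chromosome 14 from 18204056 to 18239106 and Dbp on chromosome 7 from 45705100 to 45710203. Nr1d1 shares 1075 bases with Thra, Dbp shares 741 bases with Sphk2 and Cry2 shares 23417 bases with D930015M05Rik. The library kit keeps strand, but the strand setting of the counting was not given in the sources used here, so reads over these bases may belong to either gene. The log2 CPM of Thra differed by 0.14 between the ages, that of Sphk2 by 0.39 and that of D930015M05Rik by 0.74, each higher at 32 weeks. The changes given below were 1.12 for Nr1d1, 0.54 for Dbp and 0.09 for Cry2.

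Promoter windows of 300 bases (250 before and 50 after an annotated start, RefSeq, GRCm38.p6) were available for 9 of the 10 genes. Those of 5 genes are printed because they carry a match to an element of the clock and because the levels of these genes follow below. Capitals mark the matches. The windows are chr7:113207261-113207560 (plus strand) for Arntl, chr4:151044616-151044915 (minus strand) for Per3, chr10:85185005-85185304 (minus strand) for Cry1, chr11:69098699-69098998 (plus strand) for Per1 and chr11:98775328-98775627 (minus strand) for Nr1d1.
Arntl: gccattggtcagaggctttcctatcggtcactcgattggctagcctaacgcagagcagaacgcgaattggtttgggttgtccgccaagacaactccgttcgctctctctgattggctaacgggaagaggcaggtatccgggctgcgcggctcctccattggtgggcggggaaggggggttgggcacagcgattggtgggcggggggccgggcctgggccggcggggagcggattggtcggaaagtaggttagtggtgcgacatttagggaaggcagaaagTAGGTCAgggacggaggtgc
Per3: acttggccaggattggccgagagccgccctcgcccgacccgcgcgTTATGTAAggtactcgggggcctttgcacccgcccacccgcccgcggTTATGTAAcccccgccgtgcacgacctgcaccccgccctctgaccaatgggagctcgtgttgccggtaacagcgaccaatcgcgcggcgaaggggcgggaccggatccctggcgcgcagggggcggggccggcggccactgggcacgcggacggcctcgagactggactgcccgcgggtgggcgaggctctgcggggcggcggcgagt
Cry1: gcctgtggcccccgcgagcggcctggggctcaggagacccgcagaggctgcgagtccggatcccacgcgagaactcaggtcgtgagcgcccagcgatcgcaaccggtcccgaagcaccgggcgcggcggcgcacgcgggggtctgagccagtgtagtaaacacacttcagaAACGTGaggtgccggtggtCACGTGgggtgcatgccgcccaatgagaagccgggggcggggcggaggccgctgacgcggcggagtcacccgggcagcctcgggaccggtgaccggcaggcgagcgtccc
Per1: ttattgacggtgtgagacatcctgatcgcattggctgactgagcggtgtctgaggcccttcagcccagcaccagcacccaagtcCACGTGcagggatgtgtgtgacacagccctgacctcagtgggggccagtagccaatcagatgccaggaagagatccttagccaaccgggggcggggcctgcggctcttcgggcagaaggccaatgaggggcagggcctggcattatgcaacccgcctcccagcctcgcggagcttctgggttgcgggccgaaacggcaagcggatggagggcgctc
Nr1d1: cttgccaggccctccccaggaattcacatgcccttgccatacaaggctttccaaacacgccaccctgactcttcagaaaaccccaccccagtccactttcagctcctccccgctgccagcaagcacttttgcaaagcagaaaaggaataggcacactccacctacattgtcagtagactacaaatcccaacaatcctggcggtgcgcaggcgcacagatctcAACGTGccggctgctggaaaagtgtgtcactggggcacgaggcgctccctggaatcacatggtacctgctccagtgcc

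The capitals in Arntl mark the ROR element core TAGGTCA, the half-site bound by ROR activators and by NR1D1 and NR1D2, which began at base 31 after the start. Those in Per3 mark a pair of D-boxes (TTATGTAA, searched as TTANGTAA) at positions -205 and -158, the element bound by DBP. Cry1 carried an E-box (CACGTG) at -60 and an E-box variant (searched as CACGTT on either strand, and found as AACGTG) at -79. Per1 carried an E-box at -166 and Nr1d1 the variant at -28. Cry2, not printed, carried the variant at -166. The windows of Clock, Nr1d2 and Dbp held none of these motifs. No window of the 9 genes held the cAMP response element TGACGTCA. Among all 32851 windows, 7.15% held an E-box, 4.68% the variant, 2.32% a D-box, 2.61% the ROR core and 1.79% the cAMP response element, on either strand. Counted by gene, over the 11807 tested genes with a window, the shares were 11.3%, 6.12%, 1.86%, 2.3% and 3.27%, and among the 9 clock genes these motifs were found in 2, 3, 1, 1 and 0. The E-box and its variant share letters but a given base run matches only one of these searches.

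Levels between genes were compared per kilobase of the longest annotated transcript. At 3 weeks Per1 was at 11.6 ± 3.30 CPM per kb (SD, n = 17), above Arntl at 8.31 ± 1.57 by less than the SD of Per1, and Cry1 followed at 5.52 ± 0.469. Nr1d2 (2.64 ± 0.311) and Cry2 (2.46 ± 0.335) differed by less than their SDs, as did Dbp (1.98 ± 0.369) and Per2 (1.82 ± 0.182), and Clock (1.48 ± 0.201) and Nr1d1 (1.39 ± 0.344). Each of these pairs differed from the next by more than either SD. Per3 was the lowest, at 0.987 ± 0.170 CPM per kb. With the library labelled 0/1 included, the means of Dbp and Per2 were equal at 1.87 CPM per kb, Nr1d1 (1.51) was above Clock (1.45), and the SDs of Nr1d1, Dbp and Per2 were 0.610, 0.588 and 0.314. At 32 weeks Per1 (7.64 ± 2.12) and Cry1 (6.54 ± 0.522) were the highest and could not be separated by their SDs. Arntl had moved from the second to the fourth place, at 3.60 ± 0.476 CPM per kb, beside Nr1d2 at 3.84 ± 0.476. Nr1d1 (3.02 ± 0.570) and Dbp (2.85 ± 0.822) followed and differed by less than their SDs, then Cry2 (2.59 ± 0.262) and Per2 (2.31 ± 0.286). Clock and Per3 were the lowest, at 1.88 ± 0.138 and 1.85 ± 0.187 CPM per kb.

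The comparison of the ages asks how the marrow transcriptome differs between early life and adulthood. Arntl, the activator, was lower at 32 weeks and Nr1d1, its repressor, was higher, and the D-box gene Per3 was higher as well. Tests used edgeR's quasi-likelihood test over all libraries and genes, and genes with a Benjamini-Hochberg adjusted p under 0.05 are called different. Between the ages 9 of the 10 clock genes were called, 7 higher and 2 lower at 32 weeks. Of all genes tested 83.0% were called, 41.0% higher and 42.1% lower, so the count of clock genes called is near that of genes in general. The median of the 10 changes was 0.35 on the log2 scale beside -0.02 over all genes, and the median size was 0.55 beside 0.43.

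Arntl was at 22.5 to 47.2 CPM in the 17 libraries of 3 weeks (median 33.2) and at 9.82 to 17.1 CPM in the 18 libraries of 32 weeks (median 14.8). Every library of 32 weeks was below every library of 3 weeks, the library labelled 0/1 (26.7 CPM, from 11 counts) included. The log2 fold change was -1.21 (standard error 0.0791, adjusted p = 1.89e-15). Among all genes tested, 2.05% fell by more. The fall was seen in all 6 combinations of genotype and sex, from -1.32 in CKO males to -1.07 in CKO females.

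Nr1d1 moved the other way. It was at 2.22 to 5.42 CPM at 3 weeks (median 3.54, 17 libraries) and at 5.94 to 11.5 CPM at 32 weeks (median 8.0), without overlap, and its log2 fold change was 1.12 (standard error 0.0774, adjusted p = 8.64e-15). The library labelled 0/1 was at 9.71 CPM, from 4 counts. The rise of Nr1d1 was 1.79 in control females, 1.60 in CKO females, 0.95 in control males, 0.94 in CKO males, 0.80 in Nox4-/- males and 0.63 in Nox4-/- females. Each of these values had a standard error of 0.176 to 0.203. The differences between the sexes and between Nox4-/- and control in this rise did not pass the tests given below.

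Per3, a period gene with D-boxes in its promoter window, was at 4.25 to 8.51 CPM at 3 weeks (median 5.97, 17 libraries) and at 9.22 to 12.7 CPM at 32 weeks (median 11.2), again without overlap. Its log2 fold change was 0.92 (standard error 0.0641, adjusted p = 1.18e-14), and the 6 combinations of genotype and sex ranged from 0.77 to 1.08. Arntl, Per3 and Nr1d1 were the clock genes whose values did not overlap between ages over 35 libraries, as was the case for 31.4% of all genes. Over all 36 libraries they were Arntl and Per3, against 27.7% of genes. Arntl and Nr1d1 were also the clock genes that were called and moved by 1 or more in log2 units, against 16.4% of genes.

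Among the other members of the loop, Nr1d2 rose by 0.56 (standard error 0.0557) from a median of 11.7 to 17.3 CPM, and 16 of its 18 libraries of 32 weeks were above all those of 3 weeks. Dbp rose by 0.54 (standard error 0.101) from 2.73 to 4.96 CPM at 3 weeks (median 3.53) to 3.48 to 8.97 CPM (median 4.89), and the ages overlapped. Clock, the partner of ARNTL, rose by 0.36 (standard error 0.0417), and Per2 and the repressor gene Cry1 rose by 0.34 (standard error 0.0480) and 0.24 (standard error 0.0313). Cry2 was not called, at 0.09 on the log2 scale (standard error 0.0546) with an adjusted p of 0.138. It was called with DESeq2, with library size as the only scaling, with the trend described next removed and without CKO female 3 weeks replicate 1. Per1 fell by 0.64 on the log2 scale (standard error 0.107, adjusted p = 2.25e-06), with values from 27.9 to 80.5 CPM at 3 weeks and from 21.6 to 55.8 CPM at 32 weeks that overlapped widely. By genotype and sex its change was -0.97 and -1.03 in control females and males, -0.03 and -0.65 in the CKO and -0.25 and -0.90 in Nox4-/-, with standard errors of 0.251 to 0.275. In an alternative added after the data were seen, the dependence of each library on transcript length and GC was taken out (below, the length and GC trend). The changes of Per2, Cry1 and Dbp then shrank to 0.14, 0.11 and 0.29 and were still called. Under that setting the median of all genes moved from -0.02 to -0.11, and with scaling by library size alone it moved to 0.11.

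**Figure D1:**
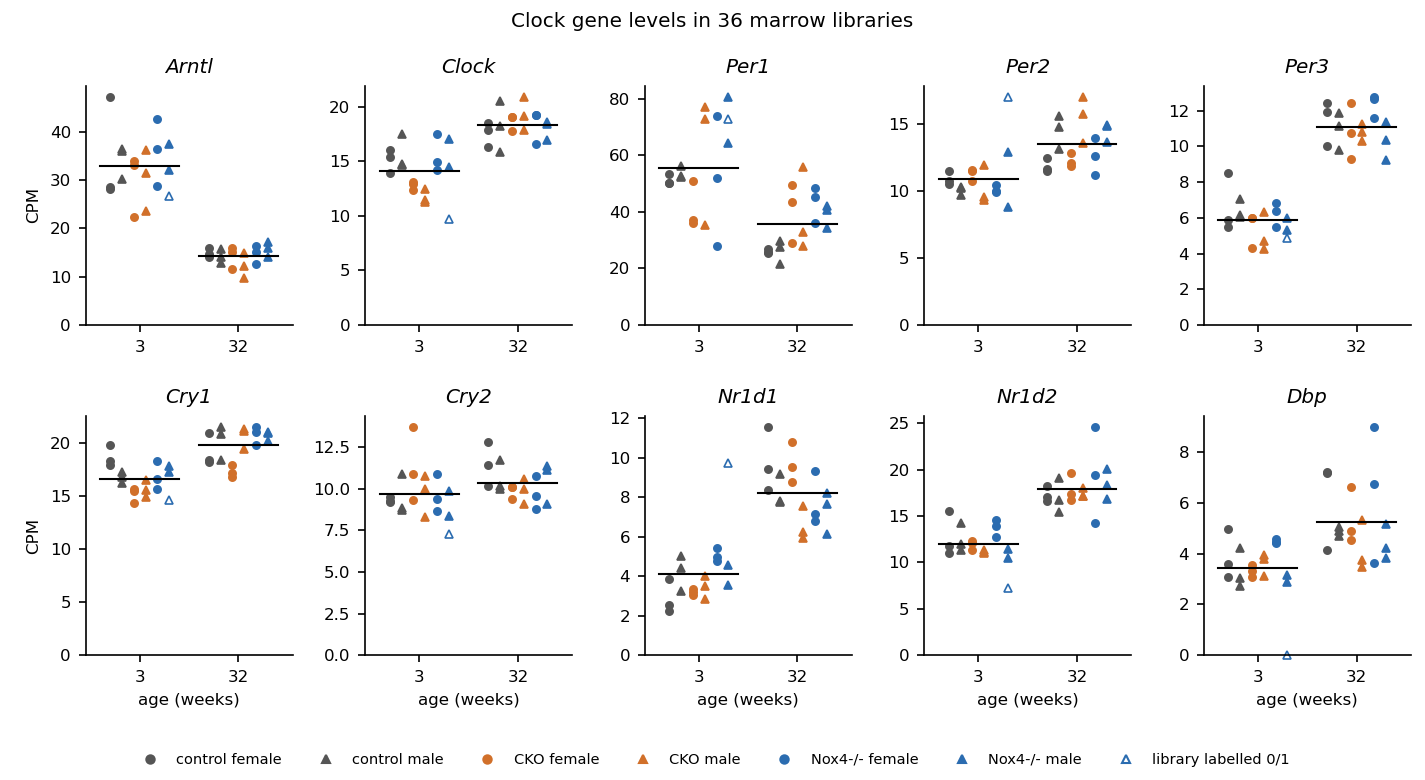
Levels of the 10 clock genes in CPM (vertical axes, from 0) at 3 and 32 weeks (horizontal axes) in 36 libraries, where each point is a library, colour the genotype, shape the sex, the open triangle the library labelled 0/1 and the line the mean of the 18 libraries of an age. Arntl sits at 22.5 to 47.2 CPM at 3 weeks and at 9.82 to 17.1 CPM at 32 weeks, while Per3 and Nr1d1 lie higher at 32 weeks.

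Ratios within a library do not depend on how libraries are scaled. Nr1d1 over Arntl was 0.0780 to 0.189 in the 17 libraries of 3 weeks and 0.397 to 0.926 in the 18 of 32 weeks, with 0.5 added to each count. Per3 over Arntl was 0.117 to 0.268 at 3 weeks and 0.580 to 1.06 at 32 weeks, and Dbp over Arntl 0.0770 to 0.167 and 0.242 to 0.568. The ages did not overlap in any of these 3 ratios over 35 libraries. Per1 over Per3, a pair of period genes, was 5.09 to 15.4 at 3 weeks and 1.94 to 5.42 at 32 weeks, with some overlap.

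**Figure D2:**
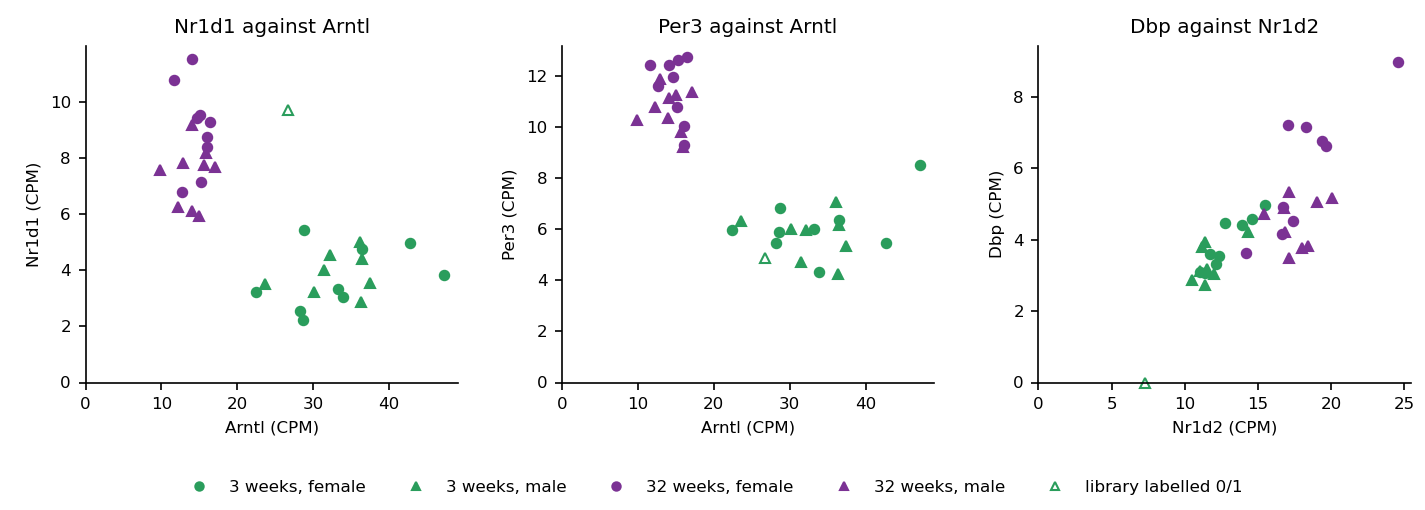
Nr1d1 and Per3 against Arntl and Dbp against Nr1d2, all in CPM on axes from 0, where each point is a library, colour the age, shape the sex and the open triangle the library labelled 0/1. The ages form separate clouds in the plots against Arntl, while Dbp and Nr1d2 rise together within each age.

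The makeup of the marrow also differed between the ages, and its part in the changes of the clock genes was not tested. All 7 neutrophil markers were higher at 32 weeks (median log2 fold change 1.37, summed level 9848 to 14818 CPM at 3 weeks and 20910 to 41210 CPM at 32 weeks). All 5 megakaryocyte markers (median 2.14) and all 5 monocyte and macrophage markers (median 0.87) were higher. All 7 B lineage markers were lower (median -1.19, summed level 472 to 902 CPM at 3 weeks and 170 to 381 CPM at 32 weeks). All 7 erythroid markers (median -1.0) and all 6 proliferation markers (median -0.86) were lower too. The largest list difference was that of skeletal muscle, with 4 of 4 markers lower (median -2.87, median summed level 20.7 CPM at 3 weeks and 2.57 CPM at 32 weeks). All 8 immediate early genes were higher (median 0.61), as were 4 of 5 T cell markers and 3 of 5 adipocyte markers, while 3 of 5 osteoblast markers were lower and 1 higher, and 2 of 4 endothelial markers moved each way. Of the 8 glucocorticoid-induced genes 2 were higher and 4 lower.

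The log2 CPM of Arntl minus the mean log2 CPM of the 7 markers was -0.99 ± 0.18 (SD, n = 17) at 3 weeks and -1.01 ± 0.19 (SD, n = 18) at 32 weeks, so that the level of Arntl relative to these markers differed between the ages by less than the SD. The difference between Nr1d1 and the neutrophil markers was -8.35 ± 0.46 and -8.54 ± 0.51, and that between Per3 and the monocyte and macrophage markers was -3.92 ± 0.24 and -3.89 ± 0.18, both on the log2 scale. Per3 relative to the neutrophil markers was -7.70 ± 0.28 and -8.09 ± 0.35, and Nr1d1 relative to the monocyte and macrophage markers -4.57 ± 0.40 and -4.34 ± 0.34. Nr1d1 relative to the megakaryocyte markers was -4.19 ± 0.32 and -5.09 ± 0.31. These lists were paired with the genes after their values were seen, and Arntl was set beside the B lineage list only. The erythroid and proliferation lists also fell with age (medians above), so these changes with age do not set the B lineage list apart from them. Single libraries within groups are given below.

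Beyond the 10 genes, 24 other genes of the clock pathway were counted as a list, and 23 of them were tested. Between the ages 12 were higher and 7 lower at 32 weeks, with a median log2 fold change of 0.28 beside -0.02 over all genes. This count is near the share of all genes called, 83.0%. Npas2, which can stand in for CLOCK, rose by 1.79 (standard error 0.175) from a mean of 0.281 to 0.952 CPM. The E-box repressors Bhlhe41 and Bhlhe40 rose by 1.32 (standard error 0.0781) and 0.81 (standard error 0.0431). The D-box activators Hlf and Tef rose by 1.16 (standard error 0.0772) and 0.28 (standard error 0.0672), and their antagonist Nfil3 rose by 1.02 (standard error 0.0656). Of the ROR receptors, which activate Arntl, Rora rose by 0.76 (standard error 0.0853) and Rorb changed by -0.75 (standard error 0.240). Among kinases and ubiquitin ligases that set the stability of PER and CRY proteins, Csnk1e (0.77), Fbxl21 (1.19) and Fbxw11 (0.46) rose, and Btrc (-0.74) fell on the log2 scale. Fbxl21 held only 189 counts over all libraries, and its change had a standard error of 0.252. Its mean was 0.115 CPM at 3 weeks (17 libraries) and 0.256 CPM at 32 weeks. Of the outputs and other partners, Usp2 (0.56) and Nampt (0.46) rose. Noct, a deadenylase-like phosphatase with a rhythmic transcript, fell most, at -1.19 (standard error 0.0972), and Timeless (-0.49), Wee1 (-0.41) and Cipc (-0.21) fell as well. Arntl2, Ciart, Csnk1d and Gsk3b were not called.

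Males and females were compared within each age. At 3 weeks 0 of the 10 clock genes were called by edgeR, DESeq2 or limma, and 1, Per1, had an unadjusted p under 0.05 in edgeR, as had 13.8% of all genes, of which 0.626% were called. At 32 weeks 1 of the 10 was called, against 10.7% of all genes. This was Per2, at 11.2 to 14 CPM in the 9 female libraries (median 12.1) and at 13.1 to 17 CPM in the 9 male libraries (median 14.8). Its log2 fold change of males against females was 0.27 (standard error 0.0687, adjusted p = 0.00921), and the sexes overlapped in the range from 13.1 to 14 CPM. Dbp and Nr1d1 missed the threshold, Dbp at -0.43 (standard error 0.145) with an adjusted p of 0.0512 and Nr1d1 at -0.30 (standard error 0.107) with an adjusted p of 0.0690. Dbp was at 3.63 to 8.97 CPM in females of 32 weeks (median 6.61) and 3.48 to 5.33 CPM in males (median 4.71). Over all alternatives the adjusted p of Dbp ranged from 0.00626, without Nox4-/- female 32 weeks replicate 3, to 0.34. Dbp also passed without control female 32 weeks replicate 3, CKO female 32 weeks replicate 2, CKO male 32 weeks replicate 3, Nox4-/- male 32 weeks replicate 3, the library labelled 0/1, control female 3 weeks replicates 1 or 3, or control male 3 weeks replicates 1 or 3. The adjusted p of Nr1d1 ranged from 0.0308 to 0.17, and Nr1d1 passed in a fit of the compared libraries alone and without control female 3 weeks replicate 1, CKO male 32 weeks replicate 2 or Nox4-/- female 32 weeks replicate 3. Of the pathway list, Nfil3 (0.39) and Fbxw11 (0.11) were higher and Timeless (-0.21) lower in males of 32 weeks. Beside these values, 6 of 7 neutrophil markers and 4 of 8 immediate early genes were higher in males of 32 weeks and 3 of 5 adipocyte and 3 of 5 osteoblast markers lower, and their part was not tested.

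The change of the sex effect with age was called for 0 of the 10 clock genes in edgeR, DESeq2 and limma, against 3.48% of all genes, and 4 of the 10 were below 0.05 before adjustment, as were 18.7% of all genes. The smallest adjusted p was that of Per2, 0.0646, at a difference of 0.31 (standard error 0.0958). The count was 1 without control female 3 weeks replicate 1, CKO male 3 weeks replicate 1, Nox4-/- male 3 weeks replicate 3 or Nox4-/- female 32 weeks replicate 2. The difference for Nr1d1 was -0.44 (standard error 0.153), with an adjusted p of 0.103. The sex effect on Per2 was thus not shown to differ between the ages.

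**Figure D3:**
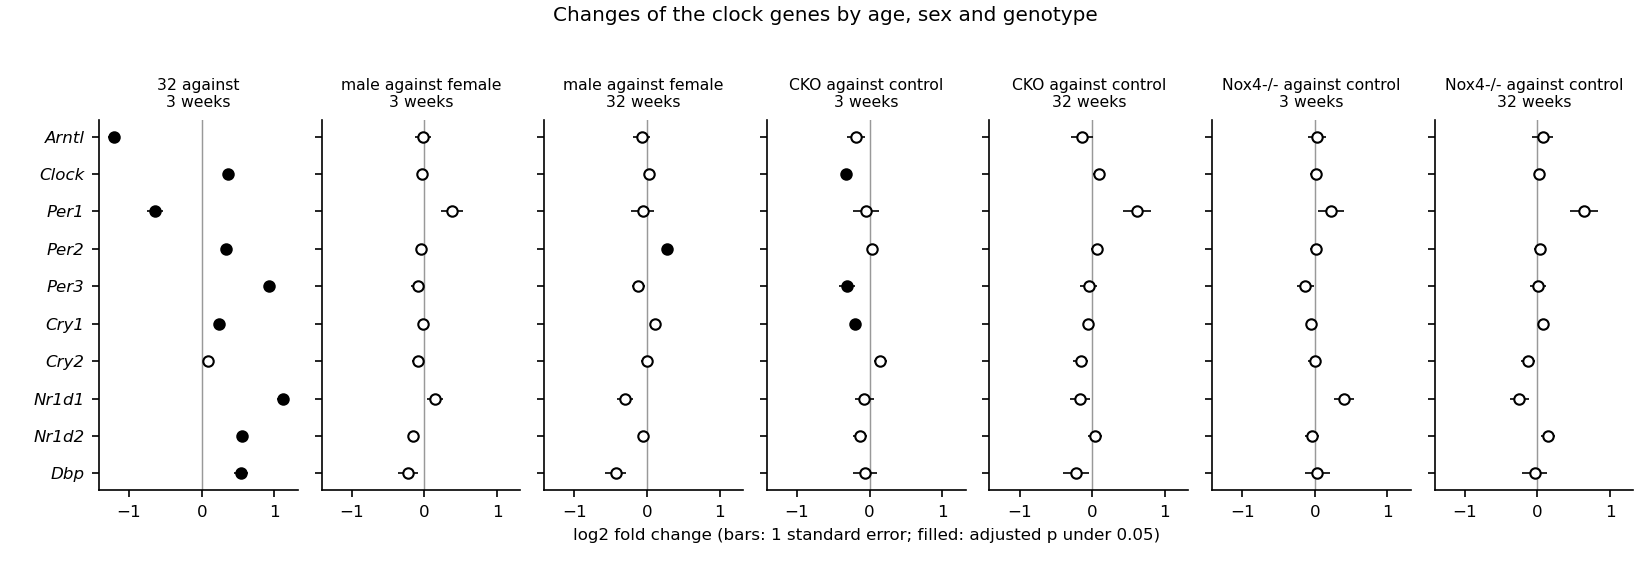
Log2 fold changes of the 10 clock genes (horizontal axes, shared) in 7 comparisons, where bars are 1 standard error and filled circles mark an adjusted p under 0.05. The age comparison holds 9 filled circles, male against female at 32 weeks 1 (Per2), CKO against control at 3 weeks 3 (Clock, Per3 and Cry1), and the other panels none.

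The comparisons of genotype set CKO and Nox4-/- mice beside Nox4fl/fl controls. The CKO carried PrxCre and the controls did not. Effects of Cre and of the loss of Nox4 therefore cannot be told apart in the CKO. At 3 weeks 3 of the 10 clock genes were called in the CKO against control, all 3 lower, beside 26.4% of all genes called. Clock was at 11.3 to 13.1 CPM in the 6 CKO libraries (median 12.4) and at 13.9 to 17.5 CPM in the 6 control libraries (median 15.1). The groups did not overlap for Clock, as was the case for 6.19% of all genes, and the log2 fold change was -0.33 (standard error 0.0695, adjusted p = 0.00116). Cry1 was at 14.3 to 16.5 CPM in the CKO and at 16.2 to 19.8 CPM in controls, with a change of -0.20 (standard error 0.0519, adjusted p = 0.00535). Per3 was at 4.25 to 6.32 and 5.47 to 8.51 CPM, with a change of -0.31 (standard error 0.108, adjusted p = 0.0320). Without control female 3 weeks replicate 1, the library highest in Per3, this change was -0.20 (adjusted p = 0.185), and without CKO female 3 weeks replicate 2 it was -0.24 (adjusted p = 0.119). The call of Per3 was also lost without control male 3 weeks replicate 1, CKO male 3 weeks replicate 2 or CKO male 3 weeks replicate 3. It was lost in a fit of the compared libraries alone too (adjusted p = 0.128). With the length and GC trend removed, Clock was at -0.16 (adjusted p = 0.065) and Cry1 alone was called. With limma Clock alone was called (adjusted p = 0.0341) and Cry1 was at -0.17 (adjusted p = 0.0531). Of the 23 pathway genes tested, Noct was higher in the CKO of 3 weeks (0.43) and Rorb (-1.0), Hlf (-0.47), Bhlhe41 (-0.46), Csnk1e (-0.23), Fbxw11 (-0.18) and Gsk3b (-0.13) were lower. In the same comparison 3 of 7 B lineage markers, 3 of 5 T cell markers, 4 of 5 monocyte and macrophage markers, 2 of 5 osteoblast and 2 of 5 adipocyte markers were lower. Of the erythroid markers 2 of 7 were higher, of the proliferation markers 2 of 6, and of the glucocorticoid-induced genes 2 of 8 were higher and 1 lower. Their part was not tested.

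At 32 weeks 0 of the 10 clock genes were called in the CKO by edgeR, DESeq2 or limma, beside 0.00652% of all genes, and 1, Per1, had an unadjusted p under 0.05, as had 3.47% of all genes. In Nox4-/- mice 0 were called at 3 weeks, beside 0.0717% of all genes, and 0 at 32 weeks, beside 0.00652%, again by all 3 tools. At 3 weeks 1 clock gene, Nr1d1, was below 0.05 before adjustment, at 0.40 (standard error 0.135) with an adjusted p of 0.721 in edgeR. At 32 weeks it was 1 as well, Per1. Of all genes 5.50% and 6.11% were below 0.05 before adjustment at these ages.

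The effect of the CKO differed between the ages for 1 of the 10 clock genes, beside 5.86% of all genes. For Clock the effect was 0.09 at 32 weeks and -0.33 at 3 weeks, and the difference of 0.42 (standard error 0.101) had an adjusted p of 0.0251. It was 0.24 (adjusted p = 0.168) with the length and GC trend removed, and the call was lost without any of 4 single libraries, control female 3 weeks replicate 1, control male 3 weeks replicate 2, control male 32 weeks replicate 1 and CKO female 3 weeks replicate 2. The effect of Nox4-/- differed between the ages for 0 clock genes, beside 0% of all genes in edgeR. Before adjustment 1213 genes (7.91%) and 1 clock gene were below 0.05. That clock gene was Nr1d1, whose difference of -0.66 (standard error 0.187) had an adjusted p of 0.530. DESeq2 and limma called 0 clock genes too.

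Among the 10 clock genes, Per1 stood apart in how its libraries varied. At 3 weeks the 6 control libraries were at 50.1 to 56.1 CPM (median 52.5), while the 6 CKO libraries were at 35.4 to 77.0 CPM (median 43.9) and 5 Nox4-/- libraries at 27.9 to 80.5 CPM. The 3 Nox4-/- females of 3 weeks were at 27.9, 74.0 and 52.0 CPM and the 3 control females at 50.1, 50.3 and 53.2 CPM. At 32 weeks the controls were at 21.6 to 29.6 CPM (median 26.3), the CKO at 27.8 to 55.8 CPM (median 38.3) and Nox4-/- at 34.4 to 48.3 CPM (median 41.3). Control and Nox4-/- libraries of 32 weeks thus did not overlap, as was the case for 0.385% of all genes, although the log2 fold change of 0.64 (standard error 0.189) had an adjusted p of 0.592. In a fit of the compared libraries alone the adjusted p was 0.0404, and over all alternatives it ranged from 0.0404 to 1. The CKO change at 32 weeks was 0.61 (standard error 0.193, adjusted p = 1), where 0.124% of all genes and 0 of the 10 had groups without overlap. In Nox4-/- at 3 weeks it was 0.189% of all genes and 0 of the 10.

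The SD of Per1 around its group means was 0.13 on the log2 scale in the controls and 0.45 in the CKO and Nox4-/- libraries together, a ratio of 3.57. Over the 10816 genes with a mean log2 CPM of at least 2 the median ratio was 0.94, and 20 genes (0.185%) had a larger one. The ratio was 3.11 to 8.73 when each library was left out in turn, the highest without control male 32 weeks replicate 1. Per2 had a ratio of 1.89, and the other 8 clock genes had ratios from 0.65 to 1.27. The spread was chosen for description after the values were seen and carries no test. The 20 genes with a larger ratio, led by Il13ra1, Atp8b4 and Mtus1, had SDs of at most 0.27 in CKO and Nox4-/- libraries, below that of Per1. A wider spread there was not particular to Per1. Of the glucocorticoid-induced genes, Dusp1 had a ratio of 2.54, Zbtb16 2.53, Klf9 2.49, and Fkbp5 and Tsc22d3 1.76. The rest of that list were at 1.20 (Mt1), 1.19 (Mt2) and 0.84 (Sgk1). The immediate early genes ranged from 0.43 (Fosb) to 1.98 (Fos). Egr1 and Fosb had SDs of 0.59 and 0.47 in CKO and Nox4-/- libraries, above that of Per1.

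Among the genes that deviated most like Per1 from library to library were known targets of the glucocorticoid receptor. Deviations of log2 CPM from the group mean were correlated over 35 libraries, and among 9492 genes those most like Per1 were Klf9 (r = 0.82), Ddit4 (0.81), Tsc22d3 (0.76), Grina (0.76) and Dusp1 (0.71). Klf9, Tsc22d3 and Dusp1 belong to the list of 8 glucocorticoid-induced genes. The other members had r of 0.54 (Mt1), 0.53 (Mt2), 0.39 (Fkbp5), 0.18 (Sgk1) and 0.01 (Zbtb16) with Per1. The mean of that list correlated with Per1 at r = 0.78 and rho = 0.75 (permutation test within groups, adjusted p = 0.0305 and 0.0091 over 130 relations of clock genes and lists), and at 0.71 without the 2 most extreme libraries. This relation was tested after the genes most like Per1 had been seen in the same libraries, so its p-values are not independent of that likeness. Within the ages r was 0.78 at 3 weeks and 0.80 at 32 weeks. By genotype r was 0.10 in the 12 control libraries, where Per1 varied little, 0.88 in the 12 CKO and 0.75 in 11 Nox4-/- libraries. The mean of the 8 immediate early genes, which also respond to handling of cells and animals, gave r = 0.39 with Per1 (adjusted p = 0.432 by the same permutation test), with -0.01 at 3 weeks and 0.75 at 32 weeks. The summed level of the glucocorticoid list at 32 weeks was 254 to 308 CPM in controls, 259 to 383 CPM in the CKO and 286 to 375 CPM in Nox4-/-, and 0 of its 8 genes were called in either genotype at that age. Its part in the level of Per1 was not tested.

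**Figure D4:**
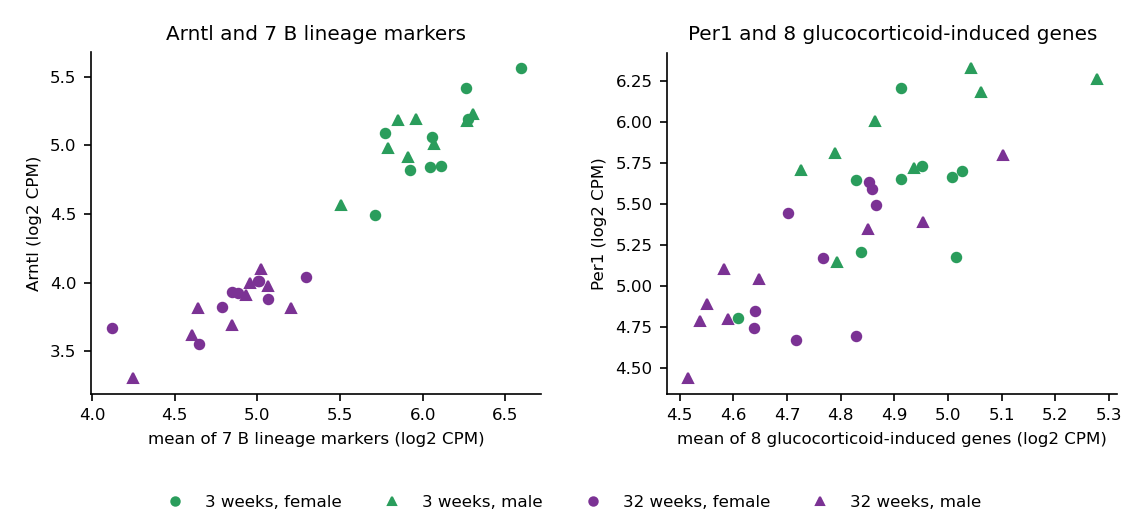
Log2 CPM of Arntl against the mean log2 CPM of 7 B lineage markers and of Per1 against that of 8 glucocorticoid-induced genes in 35 libraries, where each point is a library, colour the age and shape the sex. Arntl rises with the B lineage markers within each age, and Per1 follows its list within each age.

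The rule of the gene set also asked for shifts in single libraries, which may differ with the hour of tissue collection. That hour was not given, so its part was not tested. Of the 45 pairs of clock genes, 13 deviated together from their group means over 35 libraries (permutation test within groups, 100000 permutations, adjusted p under 0.05). Of these, 12 had a positive sign. By Spearman's rho 13 pairs passed as well, but not the same 13. Nr1d1 and Dbp missed the threshold by rho (adjusted p = 0.052), while Per2 and Nr1d2 passed by rho (0.0113) and not by r (0.0516). The share of all gene pairs that pass was not computed, so these counts have no background beside them. With the library labelled 0/1 included 6 pairs passed, and within 3 weeks or within 32 weeks alone 2 pairs each. The genes of the 12 positive pairs that passed by r were Nr1d1, Nr1d2, Dbp, Per2, Per3 and Cry2. The closest pair was Nr1d2 and Dbp (r = 0.80, rho = 0.72, adjusted p = 0.00135), at 0.66 without the 2 libraries most extreme in Nr1d2. Leaving out each library in turn gave 0.73 to 0.83, the lowest without Nox4-/- female 32 weeks replicate 3. Nr1d1 and Nr1d2 followed (r = 0.67, rho = 0.67, adjusted p = 0.00351, 0.60 without the extremes), then Cry2 and Dbp (r = 0.60, rho = 0.67, adjusted p = 0.0009, 0.67 without the extremes). Per3 deviated with Dbp (r = 0.59, rho = 0.68, adjusted p = 0.00135, 0.56 without the extremes) and with Nr1d1 (r = 0.55, rho = 0.51, adjusted p = 0.0328, 0.47 without the extremes). The pair with a negative sign was Cry1 and Cry2 (r = -0.50, rho = -0.49, adjusted p = 0.0393, -0.43 without the extremes). Arntl, which peaks opposite to these genes in a running clock, had r of 0.13 with Nr1d1 and 0.28 with Dbp, which did not pass the test, and -0.49 with Per1 (adjusted p = 0.0944).

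**Figure D5:**
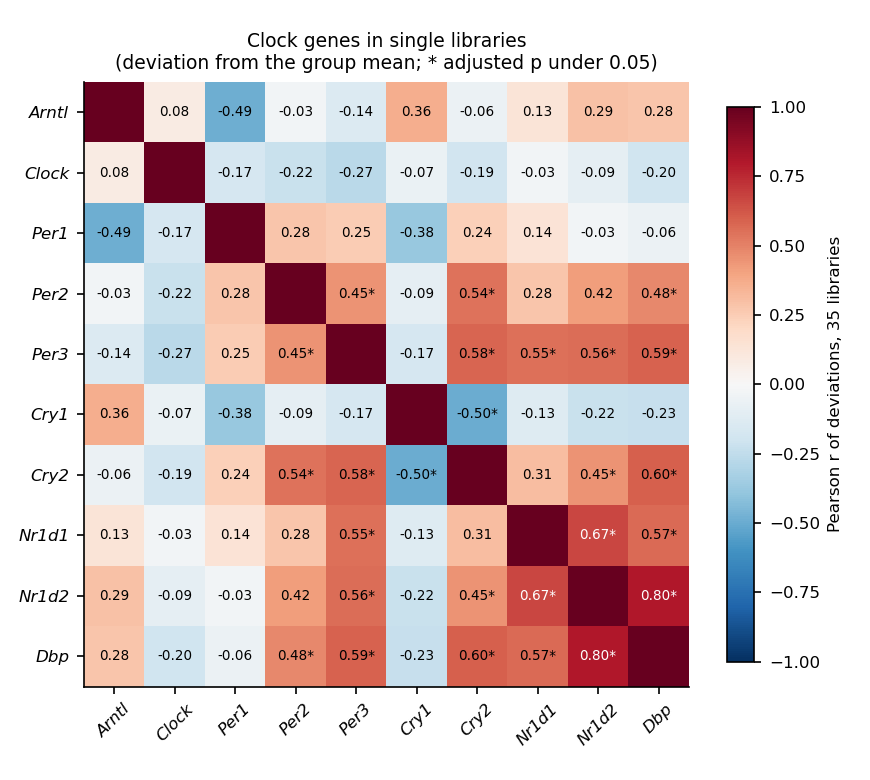
Pearson r of the deviations from the group mean for the 45 pairs of clock genes over 35 libraries, on a colour scale from -1 to 1, with an asterisk where the adjusted p is under 0.05. The block of Per2, Per3, Cry2, Nr1d1, Nr1d2 and Dbp holds the 12 positive pairs that passed, while Arntl, Clock and Per1 hold none.

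The shifts can be followed in single libraries. Among the 3 Nox4-/- females of 32 weeks, Dbp was at 8.97, 6.76 and 3.63 CPM in replicates 1, 2 and 3, and Nr1d2 at 24.6, 19.4 and 14.2 CPM. Both genes thus ranked the libraries alike, and replicates 1 and 3 held the highest and the lowest deviations of both over all 35 libraries (0.57 and -0.73 for Dbp, 0.38 and -0.41 for Nr1d2). Among the 3 control females of 32 weeks, Dbp was at 7.16, 7.22 and 4.16 CPM and Nr1d1 at 11.5, 9.45 and 8.38 CPM. Among the 3 control females of 3 weeks, replicate 1 was the highest in Nr1d1 (3.84 CPM against 2.22 and 2.53), in Per3 (8.51 against 5.90 and 5.47) and in Nr1d2 (15.5 against 11.7 and 11). The same library was also the highest in Arntl, at 47.2 against 28.6 and 28.2 CPM, with a deviation of 0.49. Its Nr1d1 and Arntl were thus high together. The mean log2 CPM of the 7 B lineage markers was also the highest of all libraries there, at 6.59, and among the libraries of 32 weeks it was the highest in Nox4-/- female replicate 1 (5.29) and the lowest in Nox4-/- female replicate 3 (4.12). The part of this in the shifts was not tested.

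Tef, another D-box activator with a rhythmic transcript, was among the 5 genes most like Dbp of 9493 compared (r = 0.80), after Nr1d2 and before Igll1 (0.73), Acsf2 (0.69) and Stat5a (0.69). The genes most like Nr1d1 were Plvap (0.75), Snx8 (0.75), Acsf2 (0.74), Mxra8 (0.73) and Abcc3 (0.73), and Nr1d2 was the 24th of 9493. The genes most like Arntl were Plekha2 (0.88), Rag2 (0.88), Stambpl1 (0.87), Irf4 (0.87) and Pou2af1 (0.87), of which Rag2, Irf4 and Pou2af1 are known from B cell development. The closest of the clock genes to Arntl was Cry1 at r = 0.36, the 1140th of 9492. The mean of the 7 B lineage markers correlated with Arntl at r = 0.76 and rho = 0.78 (permutation test within groups, adjusted p = 0.0013), at 0.83 without the 2 most extreme libraries and at 0.82 and 0.83 within the ages. The unadjusted p of 1e-05 is the smallest the permutations can give. The erythroid and proliferation lists had r of -0.53 and -0.43 with Arntl (adjusted p = 0.267 and 0.458 by the same permutation test). At 3 weeks r was -0.77 and -0.79, and at 32 weeks -0.14 and 0.48. Of the 130 relations of clock genes and lists, 2 passed the threshold, Arntl with the B lineage and Per1 with the glucocorticoid list. These relations were tested after the genes most like Arntl and Per1 had been seen in the same libraries. Their p-values are therefore not independent of that likeness. Nr1d2 and Dbp had r of 0.60 each with the B lineage markers (permutation test, adjusted p = 0.283 and 0.252), and without the 2 most extreme libraries r was 0.29 and 0.34.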

How the data were processed

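Marrow RNA of 36 pooled samples was sequenced with a stranded poly(A) kit. The authors removed contaminants with Bowtie 2 (2.2.5), aligned the reads to mm10 with STAR (2.7.3a), counted them on RefSeq transcripts using Partek Flow, and deposited a table with every gene's unnormalized count. The authors also deposited TMM-normalized values as log2 after adding 1, which were used as an alternative only. Samples were grouped by their labels. Left out were 26 features whose name is only a number (0.220% of counts).

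Counts were tested with the quasi-likelihood test of edgeR 4.0.16 (R 4.3.3) on all 36 libraries with 12 group means, TMM scaling and Benjamini-Hochberg adjustment, after filterByExpr by group had kept 15337 genes. CPM values use the TMM-scaled totals, log2 CPM a prior count of 2, and ratios of genes within a library counts plus 0.5. Replicates are separate pools, but the labels do not say which mice they hold, so p-values measure the spread between pools. Correlations used deviations from the group mean, which genes of the same library share with its depth and makeup, and were permuted within groups 100000 times. The clock genes, the pathway list and the marker lists were chosen with earlier results of these data known. All 10 clock genes and the called genes of the pathway list were named, apart from items not reported here, with the 5 genes most like Arntl, Nr1d1, Dbp and Per1. The correlations with lists, the spread by genotype and the length and GC trend were added after the data were seen.

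The tests were repeated with limma 3.58.1 on the log2 values the authors deposited, with DESeq2 1.42.0, without filtering or with a minimum of 10 counts per library, with totals in place of TMM, with a replicate block and on the compared libraries only. They were also repeated leaving out the library labelled 0/1, the shallowest and deepest libraries together, and each library in turn. The edgeR script was tested on simulated data. Depth ran from 405512 to 163611881 counts, and clock genes other than in the library labelled 0/1 had 39 to 13003 counts in a library. The limit of 3 counts covers counting error only. Positions and promoter windows came from RefSeq (GRCm38.p6) and transcript lengths from GENCODE. The same replicate number marked no shared source in the labels.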

Additional observations from a re-analysis of the deposited data

Results flagged for a closer look

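The effect of the CKO differed between the ages for Clock, the partner of ARNTL, by a test of the difference itself. The effect was -0.33 at 3 weeks and 0.09 at 32 weeks, a difference of 0.42 (standard error 0.101, adjusted p = 0.0251 in edgeR's quasi-likelihood test). Fbxw11, a ubiquitin ligase subunit that acts on PER proteins, had such a difference of 0.23 (standard error 0.0578, adjusted p = 0.0263). Clock passed with DESeq2 as well and did not pass with limma (0.36, adjusted p = 0.129) or with the length and GC trend removed (0.24, adjusted p = 0.168).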

How the results depend on the processing

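For 19 single-gene results, which do not include Cry2 by age or Per2 in the change of the sex effect with age, 684 values were computed without each library, of which 0 changed direction, 9 lost the threshold and 13 passed it, and of 166 values under the other alternatives these were 0, 7 and 5. Age called 9 clock genes in edgeR and 9 to 10 without each library in turn, and 2 with at least 10 counts in every library, where Arntl and Per1 alone were tested. Male against female at 32 weeks called 1 gene, 2 with no filter, with the compared libraries alone, without the library labelled 0/1 or with the length and GC trend removed, 0 with at least 10 counts in every library, and 1 to 3 without each library. CKO against control at 3 weeks called 3, 1 with limma or with the trend removed, 0 with at least 10 counts, and 2 to 3 without each library. Nox4-/- at 32 weeks called 0, and 1 with the compared libraries alone. The sex effect by age called 0, 1 with the trend removed, 1 without the shallowest and deepest libraries, and 0 to 1 without each library. The CKO effect by age called 1, 0 with limma, with at least 10 counts or with the trend removed, and 0 to 1 without each library, being lost without control female 3 weeks replicate 1, control male 3 weeks replicate 2, control male 32 weeks replicate 1 or CKO female 3 weeks replicate 2. The other comparisons called 0 throughout. With at least 10 counts fewer genes were tested, and for the other changes the cause was not tested.

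Of the 45 pairs of clock genes, 13 passed, 2 with levels at 3 weeks alone, 3 with levels at 32 weeks alone, 2 with deviations at 3 weeks and 2 at 32 weeks, 6 with the library labelled 0/1, 12 with the deposited log2 values and 11 without the 2 libraries farthest from the median. Of the pairs that passed, 2 of the 3 as levels at 32 weeks and 1 of the 2 as deviations at 3 weeks were among the 13. In the other settings all of them were. No share over all gene pairs was computed beside these counts. The sign of the 13 pairs was kept by all 13 as deviations within either age, as levels at 3 weeks, with the deposited values and without the 2 farthest libraries, and by 11 as levels at 32 weeks and with the library labelled 0/1.

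Correlations between same-numbered replicates of different genotypes ranged from -0.07 to 0.26, with 6 of 24 over 0.1, and were not tested. The highest was that of replicate 1 of Nox4-/- and control females of 3 weeks. Replicates 2 and 3 of these groups were at 0.13 and 0.10. With the replicate block the counts of clock genes called were 9 for age, 1 for sex at 32 weeks, 3 for the CKO at 3 weeks and 1 for its change with age, the same as without it. Depth limits the library labelled 0/1, where Dbp had 0 and Per3 2 counts.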
